A study of Mus musculus with 8 samples.

Results

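The genes examined here are 10 coreceptor and transcription factor genes that take part in the choice of thymocytes between the CD4 and CD8 lineages: Cd4, Cd8a, Cd8b1, Runx1, Runx3, Cbfb, Zbtb7b, Gata3, Tox and Patz1. They were chosen by name from the 47937 genes of the count table, and each matched 1 row. The listed name Mazr was matched to Patz1, of which it is an older symbol. RNA was sequenced from sorted CD8 single-positive (CD8SP) thymocytes that were TCRβ+ and MHC-I high, from mice of 6 to 7 weeks. The 4 Ndrg3ctrl mice had the genotype Ndrg3 +/fl;Lck-cre+ and the 4 Ndrg3TKO mice Ndrg3 fl/fl;Lck-cre+, with 1 library per mouse, and the labels name no sex. Both groups thus carried the Lck-cre transgene and at least 1 floxed Ndrg3 allele. The proximal Lck promoter drives Cre from an early stage of T cell development, and the floxed allele goes back to a single embryonic stem cell clone.

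A thymocyte that carries both coreceptors has to settle on one of them during positive selection. In cells restricted by MHC class II, GATA3 and TOX act upstream of ThPOK, the zinc finger protein encoded by Zbtb7b, which commits cells to the CD4 lineage and holds back Runx3. In cells restricted by MHC class I, Runx3 with its partner CBFβ silences Cd4 and Zbtb7b and supports Cd8 transcription.

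Of these 10 genes, Gata3 was the one that passed the test between Ndrg3TKO and Ndrg3ctrl, and it was 1.40-fold higher in Ndrg3TKO. The CD8 coreceptor genes were among the most highly expressed genes of these cells, and Cd4 and Zbtb7b had few counts in both groups. Differences were tested with edgeR's quasi-likelihood test on raw counts, with Benjamini-Hochberg adjustment over 14633 tested genes and a threshold of 0.05. Zbtb7b had too few counts to be tested. Among all tested genes 1.15% passed the threshold in either direction and 0.793% as higher and 0.355% as lower in Ndrg3TKO, beside 1 of the 9 tested lineage choice genes, which was higher. Those 9 genes had a median log2 fold change of −0.0086, and all tested genes one of −0.0033.

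Library totals ranged from 21126698 to 32668081 counts, so that a floor of 3 counts lay between 0.0918 and 0.142 CPM (counts scaled to the library total). Ndrg3, the targeted gene, had 2334 ± 28.9 normalized counts (SD, n = 4) in Ndrg3ctrl and 1499 ± 87.1 (SD, n = 4) in Ndrg3TKO, and every Ndrg3TKO library lay below every Ndrg3ctrl library. For the labelled cell type, 15 markers of mature CD8SP thymocytes were read. Together they made up 10183 to 11876 CPM in Ndrg3ctrl and 10269.8 to 11318 CPM in Ndrg3TKO. Among them Cd8a, Cd8b1, Trbc1, Trbc2 and H2-K1 encode chains of the proteins sorted on, so this sum cannot check the sort. None of the 15 passed in edgeR or DESeq2, and 4 had an unadjusted p under 0.05 in edgeR, all lower in Ndrg3TKO. Among all tested genes 10.9% had an unadjusted p under 0.05 in edgeR, in either direction. Of the markers of other cells, Ms4a1 and Ncr1 had no count in any library, but others were present in both groups, such as Ighm at 7575 ± 563 normalized counts, Dntt at 450.1 ± 61.2, Trdc at 350.3 ± 49.3, Cd79b at 342 ± 31.8 and Foxp3 at 99.8 ± 21.1 in Ndrg3ctrl. Y-linked counts were found in Ndrg3ctrl replicate 2 and in Ndrg3TKO replicates 2 and 3, at 340.5 to 416 CPM, and the other 5 libraries had at most 0.0752 CPM.

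Short stretches of RefSeq promoter sequence (GRCm38.p6, windows of 250 bases before to 50 after an annotated start) are shown for the genes at the centre of the lineage switch. Windows were found for 7 of the 10 genes, 11 windows in all, and none was matched for Cd4, Cd8b1 and Tox. The core site of RUNX proteins, TGTGGT on either strand, was in 3 of these 11 windows and in 16.8% of the windows of all genes. The upstream promoters of Runx3 and Runx1 each held 2 such cores in the same direction and 2 bases apart (either strand). Among all 32851 windows 7 held such a pair, and 3 of these belonged to Runx1, Runx2 or Runx3. Another, that of Gm16225 on the opposite strand, overlaps the Runx3 window and holds the same pair. This spacing was looked for after the single cores had been seen. The cores are in capitals, and the Runx1 stretch lies downstream of its annotated start.
Runx3, chr4:135120503-135120532, plus strand: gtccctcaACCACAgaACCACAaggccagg
Runx1, chr16:92826025-92826054, minus strand: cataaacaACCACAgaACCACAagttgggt
Zbtb7b, chr3:89387743-89387772, minus strand: ctggcgaggaacTGTGGTatgtgagtgggt

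The Zbtb7b stretch is shown because Runx complexes repress this gene in CD8 cells, and it comes from the downstream one of its 2 windows. Gata3 is the gene that changed, and the 250 bases before its RefSeq start are shown next. The Gata3 span of the GENCODE annotation, given below, extends upstream beyond these bases. The Gata3 window holds no RUNX core and no AGATAA, the letters of a common GATA site, which 11.2% of all windows hold on either strand. The core letters of an ETS site, CCGGAA on either strand, occur in 14.9% of all windows, and the match before Gata3 is in capitals.
Gata3, chr2:9878601-9878850, minus strand: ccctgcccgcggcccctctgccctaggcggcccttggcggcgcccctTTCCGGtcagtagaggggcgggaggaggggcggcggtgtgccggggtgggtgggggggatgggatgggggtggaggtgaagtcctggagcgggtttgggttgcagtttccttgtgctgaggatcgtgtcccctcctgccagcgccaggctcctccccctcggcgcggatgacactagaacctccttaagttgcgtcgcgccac
A match of letters only describes the window, and counts per gene do not show which start was used.

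Levels of different genes were compared per kilobase of merged exons and after scaling for library size (RPKM). In Ndrg3ctrl the highest levels were those of Cd8b1, at 553 ± 38.2 RPKM, and Cd8a, at 376 ± 5.26 RPKM (SD, n = 4 here and below). Cbfb at 65.5 ± 6.27 and Runx3 at 58.8 ± 3.72 RPKM came next, followed by Patz1 at 28.3 ± 1.20 and Tox at 27.5 ± 0.505 RPKM. Lower levels were found for Gata3, at 14.7 ± 0.714 RPKM, and Runx1, at 8.52 ± 0.677 RPKM. Cd4 at 0.165 ± 0.136 and Zbtb7b at 0.0385 ± 0.0233 RPKM closed the order. Mean RPKM gave the same order in Ndrg3TKO. Neighbours whose libraries overlapped were Cbfb and Runx3, and Patz1 and Tox, in both groups, and Cd4 and Zbtb7b in Ndrg3ctrl. All other neighbours in the order were apart in every library of a group. Among the tested genes ranked by mean level, Cd8b1 was number 31, Cd8a number 58, Runx3 number 690, Gata3 number 3033 and Cd4 number 14128.

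**Figure D1:**
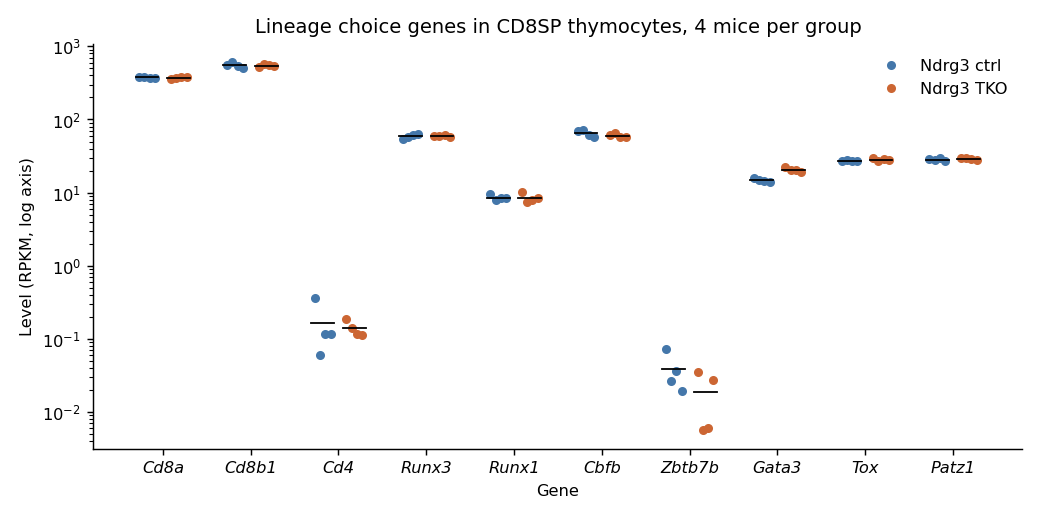
Level of each gene in RPKM on a log axis, with 1 point per library (4 Ndrg3ctrl in blue, 4 Ndrg3TKO in orange) and a black bar at the group mean. Cd8a and Cd8b1 are the highest in every library and Cd4 and Zbtb7b the lowest, and the groups are apart for Gata3, at 14.7 and 20.7 RPKM on average.

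Cd8a and Cd8b1 encode the chains of the CD8 coreceptor, which binds MHC class I, and they lie close together on chromosome 6 (GRCm38, chr6:71373427-71379173 and chr6:71322788-71337494). Normalized counts, which are counts scaled by TMM library size, were 39569.6, 40304, 39057 and 39219 for Cd8a in Ndrg3ctrl replicates 1 to 4, and 37833, 38800.1, 39958 and 39728 in Ndrg3TKO replicates 1 to 4. The groups overlapped, with the lowest value in Ndrg3TKO replicate 1 and the highest in Ndrg3ctrl replicate 2. The log2 fold change of Cd8a was −0.02, with a 95% interval of the fold from 0.906 to 1.08 (edgeR, adjusted p = 0.948). Cd8b1 had 23575, 25915, 23442 and 21949.7 normalized counts in Ndrg3ctrl and 22245, 24582, 23692 and 22844 in Ndrg3TKO. Replicate 2 was the highest of each group, and the groups overlapped. Its log2 fold change was −0.02, with a 95% interval from −0.16 to 0.12 (edgeR, adjusted p = 0.929). The ratio of Cd8a to Cd8b1 in RPKM was 0.682 ± 0.0386 in Ndrg3ctrl and 0.683 ± 0.0281 in Ndrg3TKO, so that the balance of both chains differed by less than the spread between mice.

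Cd4, on the same chromosome (chr6:124864692-124888221), encodes the coreceptor for MHC class II, which mature CD8 cells have silenced. Its raw counts were 44, 5, 14 and 13 in Ndrg3ctrl replicates 1 to 4 and 23, 18, 14 and 15 in Ndrg3TKO replicates 1 to 4. Ndrg3ctrl held both the highest and the lowest library, so that the Ndrg3TKO values lay inside the Ndrg3ctrl range. The log2 fold change was −0.30, with a 95% interval from −1.26 to 0.66 (edgeR, adjusted p = 0.861), and without Ndrg3ctrl replicate 1 it was 0.46. With so few counts and this spread between Ndrg3ctrl mice, a change of Cd4 inside that interval was not detectable. Cd8a exceeded Cd4 in RPKM by a factor of 1028 to 6289 in Ndrg3ctrl and 1903 to 3307 in Ndrg3TKO.

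Runx3, the Runx factor of the CD8 lineage (chr4:135120652-135177990), had 7862, 8305, 8859 and 9047 normalized counts in Ndrg3ctrl and 8714, 8594, 8913 and 8446 in Ndrg3TKO. All 4 Ndrg3TKO libraries lay inside the range of Ndrg3ctrl. The log2 fold change was 0.02, with a 95% interval from −0.09 to 0.14 (edgeR, adjusted p = 0.906). Runx1, the family member that is active earlier in thymocyte development (chr16:92601466-92826149), had 3302, 2751, 2896 and 2914 normalized counts in Ndrg3ctrl and 3504, 2599.6, 2754 and 2942 in Ndrg3TKO. Replicate 1 was the highest library of each group, and the groups overlapped. Its log2 fold change was −0.0086, with a 95% interval from −0.20 to 0.18 (edgeR, adjusted p = 0.985). Runx3 exceeded Runx1 in RPKM by a factor of 6.95 ± 0.821 in Ndrg3ctrl and 7.15 ± 0.907 in Ndrg3TKO.

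Cbfb (chr8:105170674-105217989) encodes CBFβ, the partner that stabilizes the binding of Runx proteins to DNA. It had 7078, 7176, 6255 and 5881 normalized counts in Ndrg3ctrl and 6114, 6508, 5826 and 5879.6 in Ndrg3TKO. Ndrg3ctrl replicates 1 and 2 were above all Ndrg3TKO libraries, and Ndrg3ctrl replicates 3 and 4 were among them. The log2 fold change was −0.12, with a 95% interval from −0.26 to 0.03 (edgeR, adjusted p = 0.565). The level of Cbfb over the summed level of Runx1 and Runx3 was 0.978 ± 0.140 in Ndrg3ctrl and 0.885 ± 0.0578 in Ndrg3TKO, and the groups overlapped.

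Zbtb7b (chr3:89377644-89394776), the gene of ThPOK, had raw counts of 12, 3, 6 and 3 in Ndrg3ctrl and 6, 1, 1 and 5 in Ndrg3TKO. These counts are near the floor of 3 counts, and the groups overlapped. In a fit with no filter on low counts its log2 fold change was −1.05 ± 0.641 (SE), with an adjusted p of 0.700 by edgeR's quasi-likelihood test. A difference in Zbtb7b was thus not detectable at this depth. Replicate 1 held the most Zbtb7b, Cd4, Runx1 and Gata3 of its group in both genotypes.

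Gata3 (chr2:9857078-9890034) encodes a zinc finger factor that is needed for CD4 lineage commitment and is expressed at a lower level in CD8 cells. Its normalized counts were 1798, 1724, 1642 and 1617 in Ndrg3ctrl replicates 1 to 4 and 2599, 2329, 2378 and 2204 in Ndrg3TKO replicates 1 to 4. All 4 Ndrg3TKO libraries were above all 4 Ndrg3ctrl libraries, and Gata3 alone of the 9 tested genes showed such a separation. Among all tested genes 7.04% were separated in this way, 3.44% as higher and 3.59% as lower. Gata3 rose by a log2 fold change of 0.49 ± 0.0594 (SE), or 1.40-fold with a 95% interval from 1.28 to 1.53 (edgeR's quasi-likelihood test, Benjamini-Hochberg adjusted p = 5.25e-04). By p-value it was number 25 of all tested genes, and by fold number 69 of the 116 genes that passed as higher. Over 14 alternative settings, which included leaving out each library, its log2 fold change lay between 0.44 and 0.52 and its adjusted p between 9.08e-10 and 0.00502. In RPKM the level of Gata3 was 14.7 ± 0.714 in Ndrg3ctrl and 20.7 ± 1.43 in Ndrg3TKO. In bulk samples more cells that express a gene and more RNA per cell cannot be told apart.

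Since Runx3 and Tox differed little between the groups, ratios to them restate the Gata3 difference on another scale and add no test. Gata3 over Runx3 in RPKM was 0.252 ± 0.0285 in Ndrg3ctrl and 0.345 ± 0.0208 in Ndrg3TKO, and Gata3 over Tox was 0.536 ± 0.0294 and 0.735 ± 0.0318. Neither ratio overlapped between the groups. With Y-linked counts as a covariate the log2 fold change of Gata3 was 0.49. Around the locus, the antisense gene Gm13256 shares 155 exonic bases with Gata3 and had a log2 fold change of −0.19 (edgeR, adjusted p = 0.870). The protein-coding neighbours Celf2 and Taf3 had log2 fold changes of 0.16 and 0.01 (edgeR, adjusted p = 0.270 and 0.966).

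**Figure D2:**
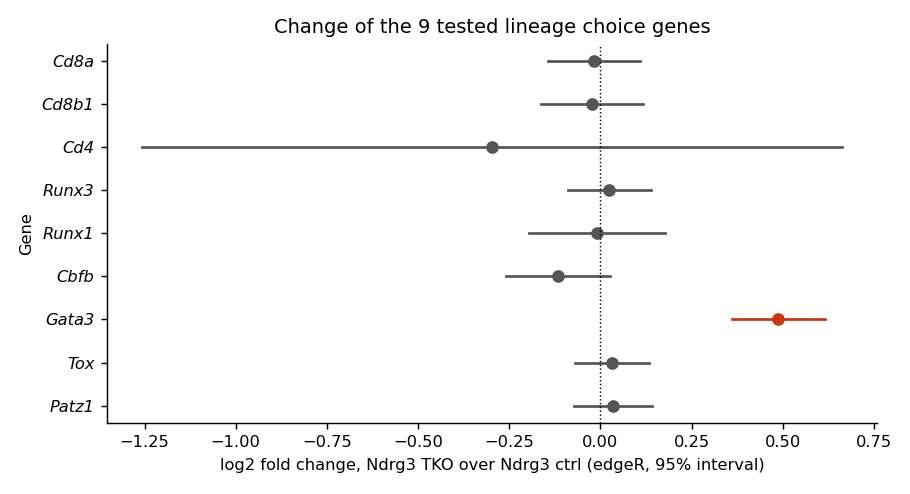
Log2 fold change of the 9 tested genes, Ndrg3TKO over Ndrg3ctrl, as points with 95% intervals from edgeR, and Gata3, which passed the threshold, in red. The interval of Gata3 lies above 0, and the other 8 intervals include 0, with that of Cd4 the widest, from −1.26 to 0.66.

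Markers of some other cells moved with the groups. The 9 markers of double-positive or immature thymocytes summed to 535 to 588 CPM in Ndrg3ctrl and 604 to 688 CPM in Ndrg3TKO, without overlap. Of these 9 genes 7 were tested and none passed in edgeR, with 2 at an unadjusted p under 0.05 and 1 called by DESeq2. Among all tested genes 10.9% had an unadjusted p under 0.05 in edgeR. DESeq2 called 309 of 24678 genes, 8641 of which had no adjusted p. The defining genes Rag2 and Ptcra had at most 4 counts in any library. The 5 gamma delta T cell markers summed to 13.3 to 16.9 CPM in Ndrg3ctrl and 19.6 to 27.3 CPM in Ndrg3TKO, and of 3 tested Tcrg-C1 rose. The members did not move together: Trdc, the delta chain gene, had a log2 fold change of −0.03 (edgeR, adjusted p = 0.954), Cd163l1 one of 1.49 (adjusted p = 0.216), and Sox13, not tested, had 8.26 ± 1.69 and 4.84 ± 3.53 normalized counts. The 6 NKT or NK cell markers summed to 1.21 to 2.06 CPM and 2.23 to 3.16 CPM, and Klrb1c rose, from 8.82 ± 6.70 to 51.3 ± 8.66 normalized counts. The other tested gene of that list, Fcer1g, had a log2 fold change of −0.03 (edgeR, adjusted p = 0.980), and Zbtb16, which encodes the defining factor of NKT cells, had too few counts to be tested and was lower in Ndrg3TKO without overlap, at 7.08 ± 2.48 and 1.61 ± 0.839 normalized counts. The part of all these markers in the Gata3 result was not tested. The 7 markers of CD4SP or regulatory T cells, which include Cd4 and Zbtb7b, overlapped between the groups, at 69.7 to 82.1 CPM in Ndrg3ctrl and 69.1 to 89.3 CPM in Ndrg3TKO. Most of that sum was Izumo1r, at 1755 ± 76.6 and 1639 ± 160.0 normalized counts. Of the 6 tested genes none passed in edgeR or DESeq2, and 2 had an unadjusted p under 0.05 in edgeR, Foxp3, at 0.53 on the log2 scale (adjusted p = 0.293), and Il2ra, at 0.62 (adjusted p = 0.422). The summed markers of B cells, of myeloid or dendritic cells and of thymic epithelial or stromal cells also overlapped, and none of the 2, 3 and 3 tested genes passed in edgeR, with 1, 1 and 0 at an unadjusted p under 0.05 and 1, 0 and 0 called by DESeq2.

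Tox (chr4:6686353-6991557) encodes an HMG box protein required for the CD4 lineage. It had 5942, 6207, 6033 and 6024 normalized counts in Ndrg3ctrl and 6494, 5910.1, 6258 and 6072 in Ndrg3TKO. The Ndrg3ctrl libraries lay inside the range of Ndrg3TKO. The log2 fold change of Tox was 0.03, with a 95% interval from −0.07 to 0.13 (edgeR, adjusted p = 0.864). Patz1 (chr11:3288874-3309083) encodes MAZR, which binds the Cd8 locus and takes part in the repression of Zbtb7b. It had 4856, 4801, 5098 and 4599 normalized counts in Ndrg3ctrl and 5127, 5083, 4878 and 4740.5 in Ndrg3TKO. The groups overlapped, and the log2 fold change was 0.03, with a 95% interval from −0.07 to 0.14 (edgeR, adjusted p = 0.855). Patz1 shares 88 exonic bases with Gm11944, a gene on the same strand.

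Other genes of the lineage choice were read from the same fit. Of 30 further regulators, all tested, 1 passed the threshold as higher and none as lower, beside 1.15% of all tested genes. Their median log2 fold change was 0.02. At an unadjusted p under 0.05 were 7 of the 30, 1 of them lower, beside 10.9% of all tested genes (edgeR). The gene that passed was Bcl6, which encodes a transcriptional repressor related to ThPOK. It had 907, 735, 888 and 872 normalized counts in Ndrg3ctrl and 1472, 1201, 1346 and 1156 in Ndrg3TKO. As for Gata3, the groups did not overlap, and Bcl6 rose by a log2 fold change of 0.60 ± 0.0860 (SE, edgeR's quasi-likelihood test, adjusted p = 0.00223). Smarca4 and Smarce1 were higher and Stat5a lower without overlap too, but did not pass (edgeR, adjusted p = 0.283, 0.345 and 0.208). Among all tested genes 7.04% did not overlap.

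Of 12 genes characteristic of the CD8 or cytotoxic lineage 11 were tested, 1 passed as lower and none as higher, beside 1.15% of all tested genes. Their median log2 fold change was −0.02. At an unadjusted p under 0.05 were 5 of the 11, 2 of them lower, beside 10.9% of all tested genes (edgeR). The gene that passed was Eomes, a T-box factor of memory-type and innate-like CD8 cells. It had 413, 458, 364 and 528 normalized counts in Ndrg3ctrl and 150.5, 213, 202 and 170.5 in Ndrg3TKO, with no overlap. Eomes fell by 1.26 on the log2 scale (SE 0.135, edgeR's quasi-likelihood test, adjusted p = 1.70e-04). Gzmb, at 19.7 ± 5.08 and 10.5 ± 4.75 normalized counts, was also lower without overlap but did not pass (edgeR, adjusted p = 0.372).

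Of 8 genes listed for the CD4 helper or regulatory lineage, all tested, 1 passed as lower and none as higher, beside 1.15% of all tested genes. Their median log2 fold change was −0.01. At an unadjusted p under 0.05 were 3 of the 8, 1 of them lower, beside 10.9% of all tested genes (edgeR). Il21r at 93.1 ± 1.01, Cd5 at 63.0 ± 4.11 and Icos at 26.7 ± 1.74 RPKM in Ndrg3ctrl were well expressed in these CD8SP cells. The list is thus not specific to CD4 cells here. The gene that passed was Icos, which encodes a costimulatory receptor. Icos had 2909, 2575, 2548 and 2572 normalized counts in Ndrg3ctrl and 2315, 2186, 2209.9 and 2248 in Ndrg3TKO, and the groups did not overlap. Icos fell by 0.24 on the log2 scale (SE 0.0538; edgeR's quasi-likelihood test, adjusted p = 0.0452), and leaving out any 1 library ended the call, with adjusted p from 0.0512 to 0.147.

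**Figure D3:**
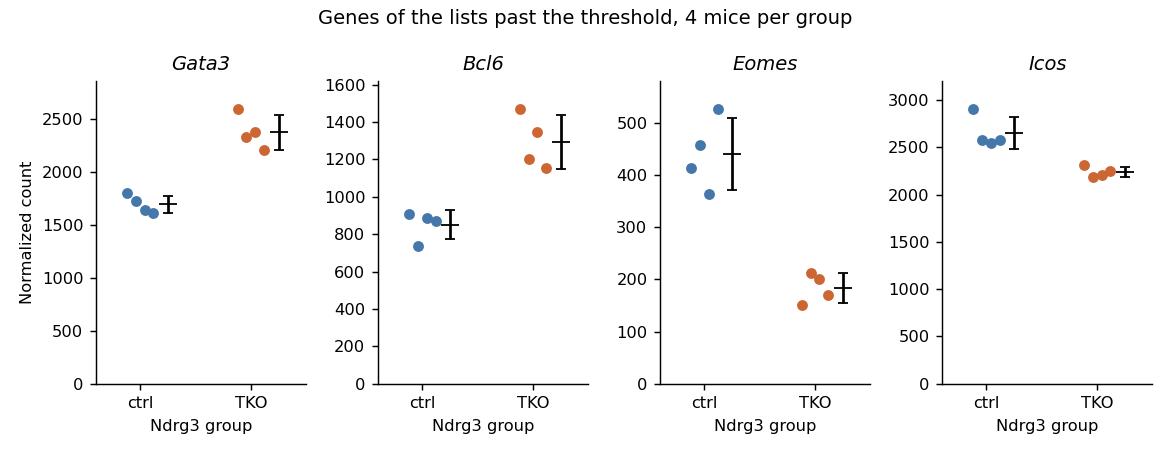
Normalized counts of the 4 genes of the lists that passed the threshold, with 1 point per library (4 Ndrg3ctrl in blue, 4 Ndrg3TKO in orange) and the mean ± SD in black. Gata3 and Bcl6 are higher and Eomes and Icos lower in all 4 Ndrg3TKO libraries than in all 4 Ndrg3ctrl libraries.

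**Figure D4:**
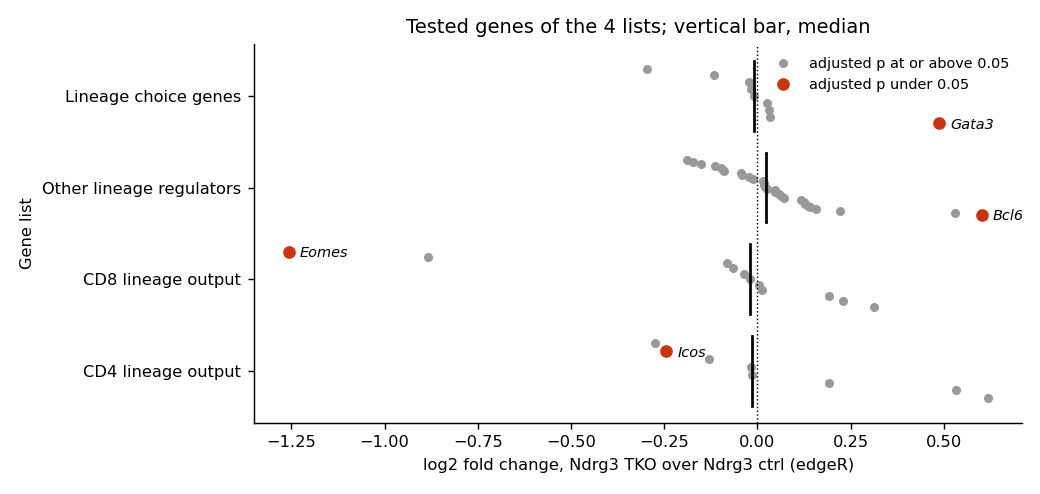
Log2 fold change, Ndrg3TKO over Ndrg3ctrl, of each tested gene in the 4 lists, with genes past the threshold in red and the list median as a vertical bar. The medians lie between −0.02 and 0.02, and 1 gene of each list passed the threshold.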

How the data were processed

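RNA was extracted from sorted thymocytes and made into total RNA libraries after ribosomal depletion, with a stranded kit. The authors used cutadapt for trimming, STAR with genome build GRCm38.p4 for alignment and featureCounts for counting, and the deposited values are raw counts per gene for 8 libraries. The strand and multimapping settings of the counting are not given in the sources used here. Counts were tested with edgeR 4.0.16 in R 4.3.3 (filterByExpr, TMM, robust quasi-likelihood fit, 2-sided, Benjamini-Hochberg over all tested genes), with 4 libraries per group and no covariate. DESeq2 1.42.0, RLE size factors, no filter, at least 10 counts in every library, the replicate number as a block, Y-linked counts as a covariate and leaving out each library were alternatives. The script was tested on simulated data. Of the genes, 98.7% matched GENCODE M21 by identifier, which gave coordinates (GRCm38) and exon lengths for RPKM; authors' counts used an earlier annotation. Floors and counts near them cover counting error only. No 2 libraries of a group agreed within sampling noise, with chi-square values per gene from 7.22 to 24.2. The members and lists were chosen with earlier results of these data known. Named were all 10 genes, Ndrg3 and the genes of the other lists that passed. Chosen after their values were seen were single other genes of those lists, markers of other cells, and neighbours or overlapping genes of the members.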

Additional observations from a re-analysis of the deposited data

Results flagged for a closer look

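Among 44 groups of 4 libraries, 3 held a library apart from the others by Dixon's test, which chance gives in about 1 in 20 groups. Ndrg3ctrl replicate 1 was apart for Icos, at 2909 normalized counts. The same library was apart for the ratio of Runx3 to Runx1 in RPKM, at 5.72. Ndrg3ctrl replicate 4 was apart for the share of mitochondrial counts, at 0.636%.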

How the results depend on the processing

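Gata3 was the one lineage choice gene called in every alternative. All genes called were 168, and 309 with DESeq2, 274 with no filter, 800 with the replicate block, 437 with Y-linked counts as a covariate and 90 to 158 without 1 library, and 69.0% of the calls were higher, against 61.8% with DESeq2, 54.4% with the block and 60.0% with the covariate. Other regulators called were 1, and 5 with the replicate block (Myb, Tcf12, Smarca4, Stat5a, Bcl6) and 3 with the covariate. CD8 lineage genes called were 1, and 2 with the replicate block and 1 to 2 without 1 library. Genes called from the CD4 lineage list were 1, and 2 with the replicate block or the covariate. With at least 10 counts in every library the number was 0, and Icos had an adjusted p of 0.05003 in edgeR. Without any 1 library it was also 0. Directions reversed only for genes that were not called: Runx1 at 0.0415 with the covariate, and without 1 library Runx1 at −0.10 to 0.0484, Cd4 at −0.53 to 0.46, Runx3 at −0.0109 to 0.0538 and Cd8b1 at −0.0601 to 0.0199 (log2). The cause was not tested. Same-numbered libraries had correlations of deviations of 0.181, 0.415, −0.0550 and 0.301, so that not every pair exceeded 0.1 and the numbers were not taken to pair the mice, and 3 of the 4 numbers correlated best with their own. Cd4 could not be tested with at least 10 counts in every library. Few counts limit Zbtb7b, and few counts together with a wide spread between Ndrg3ctrl mice limit Cd4.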
